A study of Mus musculus with 6 samples.

Results

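The 10 genes described here are usually read as marks of neutrophils and of how mature those cells are. The genes were Ngp, Ltf, Mmp8, Chil3, Retnlg, S100a8, S100a9, Stfa2l1, Csf3r and Clec4e, taken by symbol as 10 of the 22183 gene symbols of the deposited count table. They had been picked with the comparison of the DOX and PBS libraries in view. Their own differences between those groups are therefore a description, with no test. The study sequenced messenger RNA of 6 livers, 3 labelled PBS (phosphate-buffered saline) and 3 labelled DOX. All 6 carried the genotype label BucheKI/KI-Hep, a knock-in by which the series overexpresses butyrylcholinesterase (gene Bche) in hepatocytes, and all 6 had been given DDC. DDC usually stands for a porphyrin-raising diet compound that injures bile ducts, and DOX for doxycycline, but the labels expand neither. They give no age, sex or strain, and no promoter for the transgene, and the 6 samples include no wild-type or DDC-free liver. Whether the livers of a group were from different animals is not stated either. The p-values therefore cover the spread among the 6 samples alone, and that spread may be technical.

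Neutrophils are short-lived white blood cells that develop in bone marrow and fill their granules in a fixed order. Primary granules with myeloperoxidase and elastase come first, then specific granules with lactoferrin and cathelicidin-like proteins, then gelatinase granules. Cells leaving the marrow lose most of this granule transcription and switch to receptors and cytosolic proteins of the mature cell. In injured liver they gather around damaged hepatocytes and bile ducts. Macrophages and monocytes also use several of these genes, Chil3 and Clec4e among them.

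In mouse liver, 5 of the genes stood higher in DOX than in PBS livers by at least 2.02-fold, namely Chil3 (9.87-fold), Ngp (7.90-fold), Stfa2l1 (4.45-fold), Retnlg (3.97-fold) and Mmp8 (2.02-fold). The receptors Csf3r and Clec4e stood 2.08-fold and 1.90-fold lower. S100a8 and S100a9 were 1.57-fold and 1.53-fold higher and Ltf 1.91-fold lower. The groups overlapped for S100a8, S100a9, Ltf and Retnlg.

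Bche, the targeted gene, stood at 177, 177 and 206 CPM in PBS 1 to 3 and at 1938, 1867 and 1763 CPM in DOX 1 to 3. CPM is the count divided by the library total in units of 1e6 reads, scaled here for composition. Library totals ran from 32476725 to 41921404 counts, and 14681 genes passed the filter on low counts, which asked for about 0.247 CPM in 3 libraries. All 10 genes passed it, 7 of them in all 6 libraries. Ngp and Stfa2l1 reached it in all 3 DOX libraries and in fewer than 3 PBS libraries, so they could enter the test only through the group where they were high.

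The label neutrophil was checked against defining genes of the lineage. Ly6g, the surface marker used to sort mouse neutrophils, had 0 counts in all 3 PBS libraries and 1, 0 and 1 counts in DOX 1 to 3. Mpo, myeloperoxidase, had 1 count in DOX 1 and 0 in the other libraries, and Elane, neutrophil elastase, had 0 to 2 counts per library. Camp, the cathelicidin of specific granules, had 11, 1 and 0 counts in PBS and 1, 0 and 0 in DOX livers. A count of 0 allows up to 0.0685 to 0.0952 CPM, depending on the library, counting 3 reads as the limit and covering counting error only. These 4 markers were thus at or near 0 in both groups, except Camp in PBS 1. Some other granule genes were present in every library, Prtn3 with 45 to 78 counts, Cd177 with 32 to 64 and Pglyrp1 with 64 to 135. Others stayed below the filter with low counts in both groups. Itgb2l had 5, 4 and 3 counts in PBS and 1, 1 and 0 in DOX livers, and Abca13 7, 7 and 2 against 1, 1 and 1. Olfm4 had 8, 9 and 1 against 1, 4 and 4, and Mmp25 20, 9 and 15 against 3, 6 and 2. S100a6, a widely expressed relative of S100a8, also had at most 2 counts in any library. Whether a count near 0 in this table means a silent gene was not tested. The 10 genes are therefore called by their names below and not read as a number of neutrophils. In RNA of whole liver, more cells of a type and more RNA per cell cannot be told apart.

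Ngp (chr9:110419808-110423012) encodes neutrophilic granule protein, a cathelicidin relative of specific granules. It was at 0.184, 0.0913 and 0 CPM in PBS 1 to 3 and at 1.01, 0.354 and 0.889 CPM in DOX 1 to 3. Behind these lie 8, 4 and 0 counts against 38, 12 and 28, so every DOX library was above every PBS library, on few reads. The log2 fold change was 2.98 (SE 0.75), and it ran from 2.42 to 3.93 over the alternative analyses, the highest without PBS 1.

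Mmp8 (chr9:7558429-7568486), neutrophil collagenase, was measured at 1.27, 1.53 and 0.703 CPM with PBS and at 2.67, 2.004 and 2.41 CPM with DOX. The groups did not overlap, and the log2 fold change was 1.02 (SE 0.32), with means of 1.17 ± 0.422 and 2.36 ± 0.337 CPM (SD, n = 3 each). Ltf (chr9:111019292-111042766) encodes lactoferrin, the iron-binding protein that is the standard marker of specific granules. It stood at 0.691, 0.205 and 0.398 CPM with PBS and 0.159, 0.236 and 0.286 CPM with DOX. PBS 1 and PBS 3 were above all DOX libraries while PBS 2 lay among them, so the groups overlapped. Its log2 fold change of -0.93 (SE 0.57) came to -0.42 without PBS 1.

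Chil3 (chr3:106147554-106167564) encodes a secreted chitinase-like protein (Ym1) of immature neutrophils and of activated macrophages, and its log2 fold change was the largest of the 10. Its levels were 14.2, 12.2 and 8.95 CPM with PBS and 105, 74.4 and 169 CPM with DOX. The lowest DOX library was thus far above the highest PBS library, and the DOX libraries also spread widely, at 116 ± 48.1 CPM (SD, n = 3). The log2 fold change was 3.30 (SE 0.36), with 2.93 without DOX 3. Of the 50-base stretches of the Chil3 transcript, 29.4% also occur in other transcripts of the GENCODE M21 annotation, those of Chil4 and Gm6522. Chil4 had 0 to 3 counts in any library. How the authors counted reads shared between such copies was not given in the sources used here.

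Retnlg (chr16:48872608-48874498) encodes a resistin-like secreted protein of circulating neutrophils. Its levels were 0.392, 0.981 and 0.422 CPM with PBS and 3.81, 0.796 and 2.54 CPM with DOX. DOX 1 and DOX 3 were above all PBS libraries while DOX 2 was below PBS 2, so the groups overlapped. The log2 fold change of 1.99 (SE 0.56) was 1.47 without DOX 1 and 2.54 without PBS 2. Its relatives Retn and Retnla had at most 1 count in any library.

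**Figure D1:**
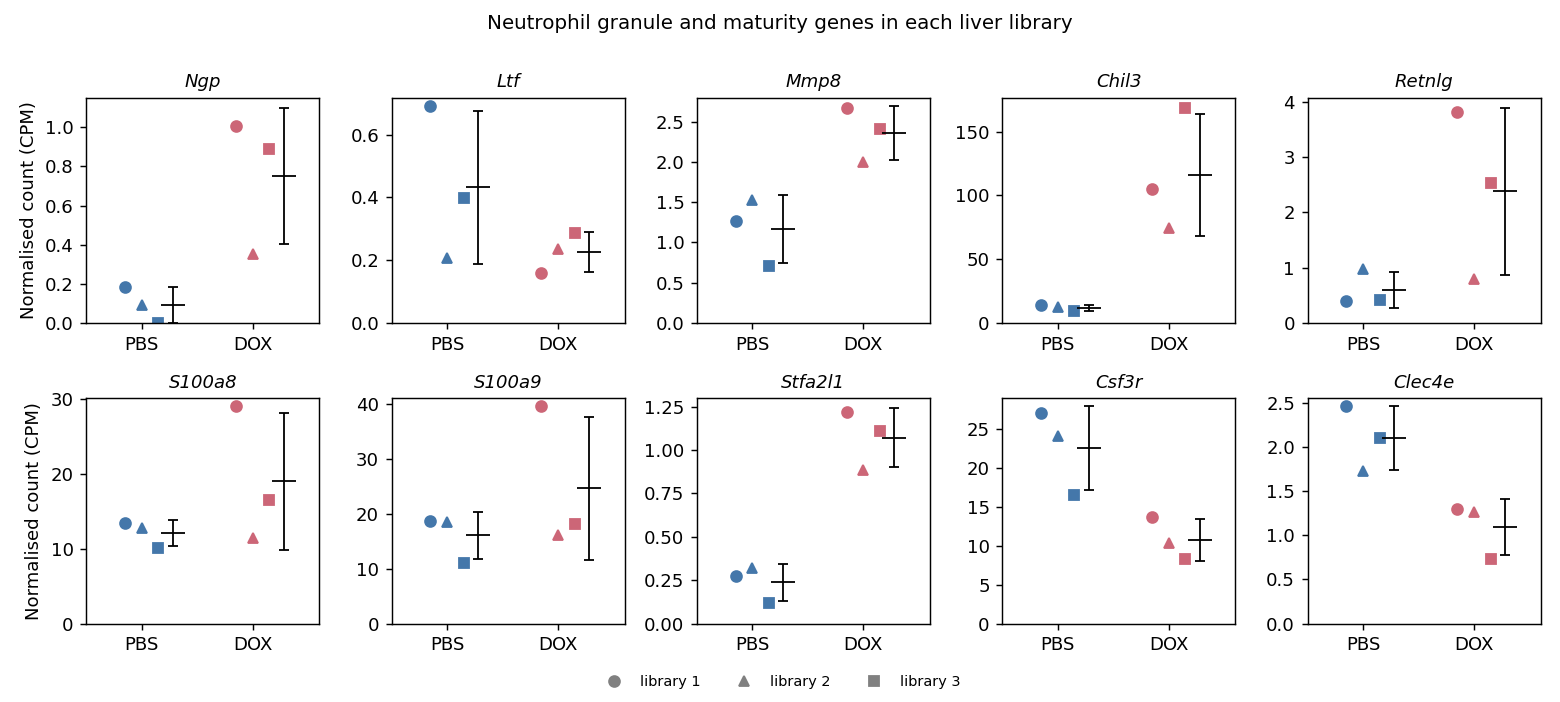
Normalised count (CPM, linear axes from 0, 1 panel per gene) of the 10 genes in 3 PBS (blue) and 3 DOX (red) libraries. Marker shapes give the library number and black bars the mean ± SD (n = 3). Ngp, Mmp8, Chil3 and Stfa2l1 have all DOX libraries above all PBS libraries, Csf3r and Clec4e have all below, and the other 4 overlap.

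S100a8 and S100a9 encode the partners of calprotectin, the calcium- and zinc-binding protein that fills the neutrophil cytosol. S100a8 stood at 13.5, 12.8 and 10.1 CPM with PBS and at 29.2, 11.4 and 16.5 CPM with DOX. S100a9 stood at 18.7, 18.5 and 11.1 CPM with PBS and at 39.7, 16.2 and 18.2 CPM with DOX. For both genes DOX 1 was the one library clearly above the rest, and DOX 2 lay inside the PBS range. Without DOX 1 the log2 fold changes went from 0.65 to 0.20 for S100a8 and from 0.62 to 0.09 for S100a9. On the length-scaled FPKM scale the ratio of S100a9 to S100a8 was 1.04, 1.08 and 0.824 in PBS 1 to 3 and 1.02, 1.06 and 0.823 in DOX 1 to 3. On this scale the pair thus kept nearly equal levels in every library, including DOX 1. The deposited FPKM implies a length of 392 bases for S100a8, against 486 in its longest coding GENCODE M21 transcript. The near equality depends on that length. They are neighbours on chromosome 3, at chr3:90669071-90670034 and chr3:90692630-90695721.

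**Figure D2:**
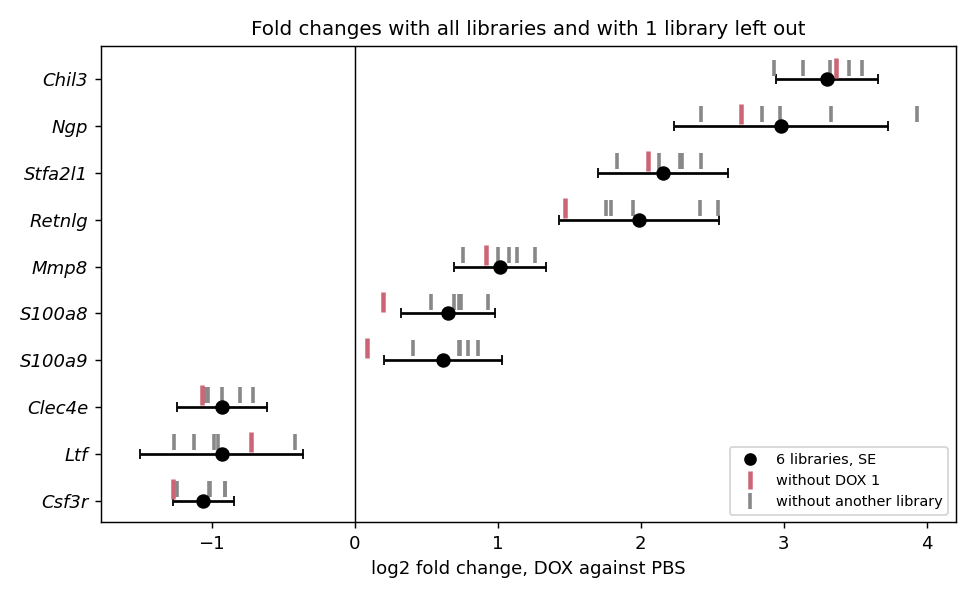
Log2 fold change of DOX against PBS for the 10 genes, with all 6 libraries (black, bar = SE) and with 1 library left out (ticks, red for DOX 1). No tick crosses 0, and the ticks without DOX 1 bring S100a8 to 0.20 and S100a9 to 0.09.

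Stfa2l1 (chr16:36156811-36161948) belongs to the stefin A genes, small cytosolic inhibitors of cysteine proteases that sit as a cluster of close copies on chromosome 16 and are abundant in mature neutrophils. It was at 0.276, 0.319 and 0.117 CPM with PBS and 1.22, 0.884 and 1.11 CPM with DOX, on 5 to 14 and 30 to 46 counts. The groups did not overlap, with a log2 fold change of 2.16 (SE 0.46). The second coding exon, at chr16:36159946-36160047 for Stfa2l1, shows how alike the copies are. Capitals mark the bases that differ from Stfa2l1; each sequence is the coding strand from GENCODE M21 transcripts on GRCm38.
Stfa2l1: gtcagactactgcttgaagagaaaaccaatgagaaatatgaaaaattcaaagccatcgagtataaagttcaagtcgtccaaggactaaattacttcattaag
Stfa2: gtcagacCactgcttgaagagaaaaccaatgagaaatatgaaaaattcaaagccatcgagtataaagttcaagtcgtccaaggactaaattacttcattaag
Stfa3: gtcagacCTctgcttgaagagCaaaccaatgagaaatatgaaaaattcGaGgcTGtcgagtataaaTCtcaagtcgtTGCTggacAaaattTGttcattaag
Stfa1: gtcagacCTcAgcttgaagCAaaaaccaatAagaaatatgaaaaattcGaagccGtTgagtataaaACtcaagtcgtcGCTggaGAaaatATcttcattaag
Gm5483: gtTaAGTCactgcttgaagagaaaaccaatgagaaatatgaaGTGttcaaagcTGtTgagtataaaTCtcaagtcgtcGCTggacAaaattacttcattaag

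Stfa2 differed from Stfa2l1 at 1 base of the 102 in this exon, Stfa3 at 16, Gm5483 at 17 and Stfa1 at 18. Over the whole Stfa2l1 transcript, 24.6% of the 50-base stretches recur elsewhere, in Stfa2 and Gm49652. How far this affects the counts of Stfa2l1 was not tested. Stfa1 had 4, 0 and 1 counts in PBS and 9, 5 and 6 in DOX livers, Stfa2 had 0 in PBS and 3, 1 and 0 in DOX, and Stfa3 had counts in DOX 1 alone, 3 of them. These copies did not pass the filter. Gm5483, listed in the table under its newer symbol Cstdc4, passed it and was higher in DOX livers, at 0.138 ± 0.14 against 0.8 ± 0.495 CPM (SD, n = 3). Its log2 fold change of 2.496 had an adjusted p of 0.0224 by the quasi-likelihood test of edgeR, corrected over all 14681 genes by the method of Benjamini and Hochberg. Like Ngp and Stfa2l1, it reached the filter level in all 3 DOX libraries and in fewer than 3 PBS libraries. This call was lost when single libraries were left out (PBS 2, 0.0796; PBS 3, 0.0812; DOX 1, 0.0548; DOX 3, 0.109), and the alternatives spanned 0.00242 to 0.109.

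Csf3r (chr4:126023441-126044975) encodes the receptor for granulocyte colony-stimulating factor, the cytokine that drives neutrophil production. It was measured at 27.0, 24.1 and 16.5 CPM with PBS and at 13.7, 10.4 and 8.32 CPM with DOX. All DOX libraries lay below all PBS libraries, with a log2 fold change of -1.06 (SE 0.21) and -0.90 to -1.27 over the alternatives. Of the 50-base stretches of its transcript 11.2% recur in transcripts of other genes, 190 of them in all. How far this affects the counts of Csf3r was not tested. Csf3, the gene of its ligand, had 0 to 4 counts per library. The related cytokine receptor genes Csf2ra, Csf2rb, Lifr and Il6st did not pass the edgeR test, with log2 fold changes of 0.17, 0.10, 0.04 and -0.06.

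Clec4e (chr6:123281789-123289871) encodes Mincle, a C-type lectin receptor of neutrophils and macrophages that binds microbial glycolipids and signals from dead cells. Its levels were 2.46, 1.73 and 2.11 CPM with PBS and 1.30, 1.27 and 0.73 CPM with DOX, again without overlap (log2 fold change -0.93, SE 0.31). Clec4d, its neighbour and partner in the same lectin cluster on chromosome 6, went the other way. Clec4d stood at 5.30, 4.93 and 4.87 CPM with PBS and 8.81, 7.13 and 15.7 CPM with DOX (log2 fold change 1.06, SE 0.26, edgeR adjusted p = 0.0124). Per length, the ratio of Clec4d to Clec4e was 4.85, 6.41 and 5.22 in PBS and 15.3, 12.7 and 48.5 in DOX 1 to 3. The difference between the changes of these neighbours was not tested, since Clec4e was chosen on this contrast.

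FPKM, the count per gene length and library total, allows levels of different genes to be compared, as far as the length used is right. The deposited FPKM implies 4633 bases for Csf3r and 3015 for Clec4e. Their longest coding GENCODE M21 transcripts have 3481 and 2518 bases. The ranks of these genes, and the size of ratios to them, depend on that length. Over all 6 libraries Chil3, S100a8 and S100a9 had the highest means. In PBS livers S100a8 (32.8 ± 5.67 FPKM) and S100a9 (32.7 ± 9.53) led, with no difference beyond their spread, then Chil3 (8.25 ± 2.03) and Csf3r (5.16 ± 1.36). Retnlg (1.05 ± 0.603), Clec4e (0.736 ± 0.128), Stfa2l1 (0.612 ± 0.286) and Mmp8 (0.506 ± 0.195) followed in PBS livers, each within its spread of the next, and Ltf (0.166) and Ngp (0.0849) were lowest. In DOX livers Chil3 led at 73.2 ± 31.9 FPKM (SD, n = 3), within its spread of S100a8 (45.9 ± 21.7) and S100a9 (44.5 ± 23.1). Retnlg (3.72 ± 2.35), Stfa2l1 (2.45 ± 0.405) and Csf3r (2.20 ± 0.522) came next in DOX and did not differ beyond their spread. Mmp8 (0.913), Ngp (0.613) and Clec4e (0.343) followed in DOX livers, and Ltf was lowest at 0.0785 FPKM.

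**Figure D3:**
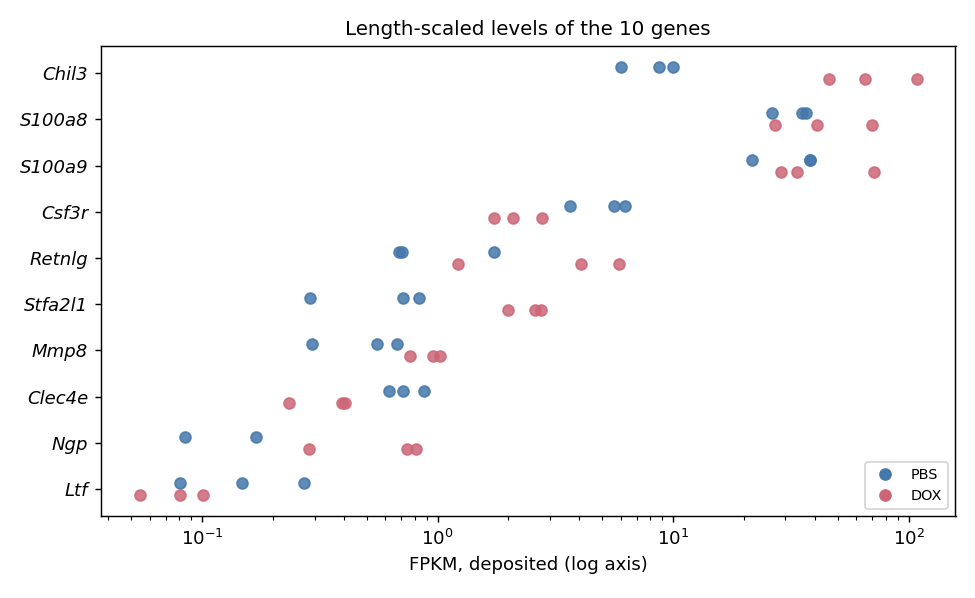
Deposited FPKM (log axis) of the 10 genes in each library, PBS in blue and DOX in red, ordered by the mean over 6 libraries. The Ngp value of PBS 3 is 0 and is not drawn. Chil3, S100a8 and S100a9 have the highest means, and Ltf the lowest.

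Levels were also set against Csf3r within the same library. The ratio of Chil3 to Csf3r in FPKM was 1.61, 1.55 and 1.66 in PBS 1 to 3, a narrow range, and 23.6, 21.9 and 62.2 in DOX 1 to 3. The ratio of Ngp to Csf3r was 0.0272, 0.0151 and 0 in PBS and 0.293, 0.136 and 0.426 in DOX livers. The ratio of Stfa2l1 to Csf3r was 0.114 ± 0.0346 in PBS and 1.15 ± 0.302 in DOX livers (SD, n = 3), and that of Mmp8 to Csf3r 0.0962 ± 0.0209 and 0.427 ± 0.105. These ratios rest on the values that chose the genes and are given without a test.

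Of the 10 genes, 4 had all DOX libraries above all PBS libraries, against 21.8% of the tested genes, and 2 had all below, against 22.3%. Nothing is read from these counts, because the genes were chosen on this contrast. DOX 2 was the lowest DOX library for 7 of the 10 genes, the same 7 whose DOX mean was the higher one, and for 37% of all tested genes. DOX 1 was the highest DOX library for 8 of the 10, Csf3r and Clec4e included, and for 32.1% of all tested genes. The part of these libraries in the results was not tested.

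Promoter sequence was searched for letters bound by factors of granulocyte development. C/EBP factors, among them the granule regulator C/EBP-epsilon, recognise sites of the form TTNNGNAA, PU.1 sites hold GAGGAA, and STAT3, which acts after the G-CSF receptor, prefers TTCNNNGAA. Each was searched on both strands in the 250 bases before the start used for each RefSeq gene (GRCm38.p6), and the motifs may overlap. TTNNGNAA occurred in 9 of the 10 genes' windows, against 36.8% of 32851 windows of all genes. GAGGAA occurred in 6 of 10, against 23.3%, and TTCNNNGAA in 1, Chil3, against 7.02%. Csf3r was the gene without TTNNGNAA. Its window, chr4:126024409-126024658, lies inside the gene span given above, not before it, and 109 of its 250 bases are annotated exon. The bases before that span were not searched, so the absence holds for this window alone. The windows of Chil3 (chr3:106167565-106167814, minus strand), Mmp8 (chr9:7558179-7558428, plus strand), Stfa2l1 (chr16:36156561-36156810, plus strand) and Clec4e (chr6:123289872-123290121, minus strand) are shown. They were taken from the 6 windows without an annotated exon, as 3 genes that were higher and 1 that was lower in DOX livers. Capitals mark TTNNGNAA on either strand.
Chil3: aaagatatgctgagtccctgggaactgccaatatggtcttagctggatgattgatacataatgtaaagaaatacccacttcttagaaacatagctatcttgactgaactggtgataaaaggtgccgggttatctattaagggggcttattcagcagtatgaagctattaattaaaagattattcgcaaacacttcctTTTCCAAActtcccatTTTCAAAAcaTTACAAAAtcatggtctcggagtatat
Mmp8: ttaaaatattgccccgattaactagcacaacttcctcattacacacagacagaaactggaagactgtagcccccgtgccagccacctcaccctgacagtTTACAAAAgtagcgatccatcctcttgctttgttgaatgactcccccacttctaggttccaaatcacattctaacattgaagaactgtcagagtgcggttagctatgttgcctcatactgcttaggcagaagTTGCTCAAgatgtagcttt
Stfa2l1: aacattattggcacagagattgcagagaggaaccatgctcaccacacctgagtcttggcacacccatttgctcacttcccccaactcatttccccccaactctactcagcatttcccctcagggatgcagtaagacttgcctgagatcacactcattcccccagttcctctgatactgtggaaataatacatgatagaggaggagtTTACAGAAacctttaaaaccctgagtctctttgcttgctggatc
Clec4e: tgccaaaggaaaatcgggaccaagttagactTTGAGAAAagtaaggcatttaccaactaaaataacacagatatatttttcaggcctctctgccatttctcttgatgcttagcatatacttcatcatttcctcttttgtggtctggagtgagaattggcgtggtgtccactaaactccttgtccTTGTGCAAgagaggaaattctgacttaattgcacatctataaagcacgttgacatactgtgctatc

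Chil3 held 3 matches, which lie between 53 and 20 bases before the start. Mmp8 held 2, the nearer one (TTGCTCAA) at 19 to 12 bases before the start, and Stfa2l1 held 1, at 44 to 37 bases. Clec4e, of the opposite direction, held 2, one of them (TTGTGCAA) at 66 to 59 bases. The letters are thus found in genes of either direction, and a match is a description of sequence, not a bound site.

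Other genes of the neutrophil programme, 73 in the table from 7 lists, were then tested as single genes in the same edgeR fit. Of these, 52 passed the filter. With the call set at an adjusted p of 0.05, 8 rose and 11 fell in DOX livers. That is 15.4% and 21.2% of the 52, against a background of 13.5% of all tested genes that rose and 14.0% that fell. The lists were not tested as sets, and they were chosen with earlier results of these data known, so these shares are a description. The median log2 fold change of the 52 was -0.08, against -0.01 over all genes. Leaving out PBS 2 gave 7 that fell, and leaving out DOX 3 gave 6. Scaling by library size alone moved the median of all genes to -0.16 and the share of higher genes among all calls from 48.9% to 23.1%, and gave 8 higher and 12 lower in the 7 lists.

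Of primary granule genes, 1 of 4 in the table passed the filter, Prtn3 (proteinase 3), at 1.601 ± 0.149 CPM with PBS and 1.70 ± 0.518 CPM with DOX, and it was not called. Of 10 specific granule genes 5 passed the filter, 0 rose and 1 fell (all tested genes: 13.5% and 14.0%). That gene was Chil1 (also Chi3l1), a chitinase-like relative of Chil3, at 1.87, 1.14 and 1.73 CPM with PBS and 0.582, 0.472 and 0.476 CPM with DOX (adjusted p = 0.00745 by edgeR). Cd177, Pglyrp1, Anxa1 and Lcn2 did not pass, with log2 fold changes of 0.63, -0.15, 0.33 and 0.13. Lcn2, which injured hepatocytes also make, was the most abundant of them at 331 ± 31.4 CPM with PBS and 362 ± 118 CPM with DOX.

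Of 6 tested genes of gelatinase granules and secretory vesicles, 2 rose and 1 fell (all tested genes: 13.5% and 14.0%). Mmp9, the gelatinase that names these granules, fell from 18.1, 11.5 and 15.04 CPM in PBS to 6.48, 5.78 and 3.40 CPM with DOX (log2 fold change -1.51, adjusted p = 0.00182 by edgeR). This was the opposite direction to Mmp8, and the FPKM ratio of Mmp8 to Mmp9 was 0.129 ± 0.0686 in PBS and 0.758 ± 0.3 in DOX livers (SD, n = 3). The membrane protease Adam8 and the integrin chain Itgam rose, with log2 fold changes of 1.31 and 0.77 (adjusted p = 0.00468 and 0.00427 by edgeR). The formyl peptide receptor genes Fpr1 and Fpr2 and the integrin chain Itgb2 did not pass. Many of these genes are shared with macrophages and monocytes.

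Of 18 further genes of mature neutrophils, 13 passed the filter, 3 rose and 4 fell. That is 23.1% and 30.8% of the 13, against 13.5% and 14.0% of all tested genes. Nothing is read from counts in a list this short. Besides Clec4d and Cstdc4, Wfdc21, a small whey acidic protein, rose from 158 ± 5.94 to 342 ± 51.2 CPM (SD, n = 3, adjusted p = 0.000266 by edgeR). Per length it stood at 380 ± 10.6 FPKM with PBS and 739 ± 107 FPKM with DOX, against 32.8 and 45.9 FPKM for S100a8. Which cells held Wfdc21 was not tested. Il1b, the inflammatory cytokine interleukin-1 beta, fell from 7.81, 7.03 and 6.53 CPM to 2.70, 3.71 and 1.08 CPM (log2 fold change -1.50, adjusted p = 0.01 by edgeR). Slfn4 fell by 2.34 on the log2 scale (adjusted p = 0.00641), from 0.875, 1.99 and 0.843 CPM to 0.318, 0.147 and 0.254 CPM. Cxcr2, the receptor through which neutrophils follow CXC chemokines, was lower in every DOX library, at 6.50 ± 0.546 against 3.51 ± 1.36 CPM. Its edgeR adjusted p of 0.0218 became 0.0703 without PBS 1, 0.0522 without PBS 3 and 0.0749 without DOX 3 (alternatives 0.00171 to 0.0749). Acod1, the itaconate-producing enzyme, was at 0.731 ± 0.0627 and 0.244 ± 0.133 CPM. Its edgeR adjusted p of 0.0319 became 0.087, 0.0696, 0.0798, 0.0805 and 0.106 when PBS 1, PBS 2, PBS 3, DOX 2 or DOX 3 was left out (alternatives 0.0195 to 0.106). Slfn4 and Acod1 reached the filter level in all 3 PBS libraries and in 1 DOX library, so they entered the test through the group where they were high. Trem1, Hdc, Il1r2, Asprv1 and Cd300ld did not pass.

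**Figure D4:**
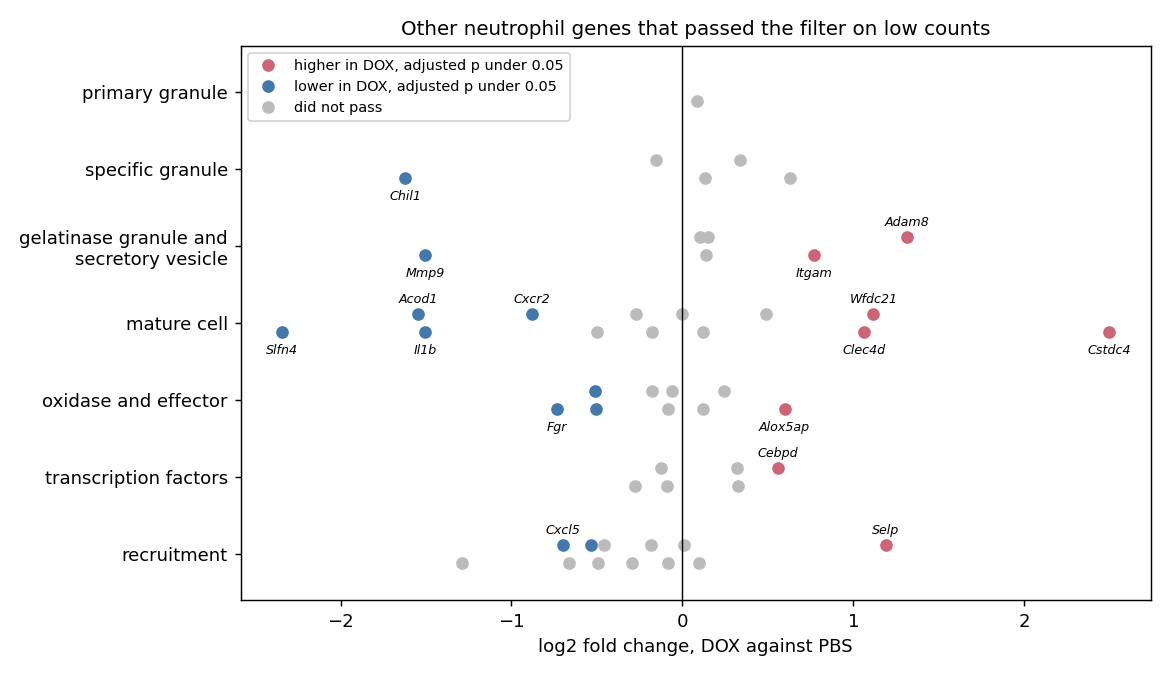
Log2 fold change of DOX against PBS for the 52 tested genes of 7 neutrophil lists outside the 10 genes. Red and blue points passed edgeR's test at an adjusted p under 0.05, grey points did not, and vertical offsets within a row carry no meaning. Called genes with the larger changes are named. Higher and lower genes occur side by side in 4 of the rows, and 8 rose against 11 that fell.

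Among 9 tested genes of the oxidase and effector list, 1 rose and 3 fell, Fgr and Ncf1 among them (all tested genes: 13.5% and 14.0%). Alox5ap, the partner of 5-lipoxygenase in leukotriene synthesis, rose from 15.8 ± 2.42 to 23.9 ± 2.84 CPM (SD, n = 3, edgeR adjusted p = 0.00944). The Src-family kinase gene Fgr fell by 0.73 on the log2 scale (adjusted p = 0.00618). Ncf1, an oxidase subunit, fell from 27.1 ± 2.81 to 19.1 ± 2.65 CPM (SD, n = 3). The edgeR adjusted p of Ncf1 was 0.0149, and 0.0633, 0.0522, 0.0522 and 0.0617 when PBS 1, PBS 2, DOX 1 or DOX 3 was left out (alternatives 0.00213 to 0.0633). The oxidase core gene Cybb, at 99.5 ± 4.04 and 88.1 ± 2.78 CPM, did not pass, nor did Cyba or Ncf4.

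Of 6 tested transcription factors of the lineage, Cebpd rose by 0.56 on the log2 scale, from 27.2 ± 2.93 to 40.0 ± 4.66 CPM (SD, n = 3; adjusted p = 0.00704 by edgeR). Cebpe, the factor required for specific granules, was at 1.34 ± 0.192 and 1.10 ± 0.329 CPM and did not pass. Spi1, which encodes PU.1, and Cebpa, Cebpb and Mxd1 did not pass either. Cebpa and Cebpb are also hepatocyte factors.

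Of 12 tested genes of the recruitment list, which holds signals, adhesion molecules and receptors, 1 rose and 2 fell. That is 8.33% and 16.7% of the 12, against 13.5% and 14.0% of all tested genes. Selp, the adhesion molecule P-selectin of endothelium and platelets, rose from 4.28, 3.15 and 3.47 CPM to 7.41, 7.57 and 9.94 CPM (log2 fold change 1.19, adjusted p = 0.00162 by edgeR). Cxcl5, a ligand of Cxcr2, fell from 27.6, 19.9 and 20.5 CPM to 14.4, 16.03 and 11.4 CPM (log2 fold change -0.70, adjusted p = 0.00932). Icam1, the endothelial and hepatocyte adhesion molecule, was lower at 67.9 ± 3.18 against 46.8 ± 10.7 CPM. Its adjusted p of 0.0177 by edgeR became 0.0606 without PBS 2, 0.053 without PBS 3 and 0.0745 without DOX 3 (alternatives 0.000933 to 0.0745). The other Cxcr2 ligands Cxcl1 and Cxcl2 did not pass, with log2 fold changes of 0.10 and -0.49.

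Relatives and partners of the 10 genes were counted separately, with 30 tested. Of these 5 rose and 1 fell, which is 16.7% and 3.33%, against 13.5% and 14.0% of all tested genes. This list too was chosen with earlier results of these data known, so the shares are a description. Cstdc4, Clec4d, S100a1, S100a16 and Ager, the gene of the calprotectin receptor RAGE, were higher, and Chil1 was lower. Cstdc4, Clec4d and Chil1 are also in the lists above. Scaled by library size alone, 2 rose and 5 fell. Higher relatives and partners numbered 2 without PBS 1, PBS 2 or DOX 1 and 3 without PBS 3 or DOX 3. S100a1, at 64.2 ± 2.55 and 88.5 ± 13.2 CPM (edgeR adjusted p = 0.0130), lost its call with library size alone (0.0553) and without PBS 1 (0.0533), over alternatives of 0.00304 to 0.0553. S100a16, at 28.1 ± 0.912 and 35.4 ± 2.03 CPM (edgeR adjusted p = 0.0282), lost it with library size alone (0.203), with no filter (0.0503) and without PBS 1 (0.0977), PBS 2 (0.0882), PBS 3 (0.0621) or DOX 1 (0.0884), and its alternatives ran from 0.0249 to 0.203. Ager was at 0.306 ± 0.167 and 1.01 ± 0.526 CPM, on 5 to 19 and 23 to 51 counts, and in PBS livers it reached the filter level in fewer than 3 libraries. Its edgeR adjusted p of 0.0355 became 0.0713, 0.0525, 0.111, 0.0546 and 0.173 when PBS 1, PBS 2, PBS 3, DOX 1 or DOX 3 was left out, and 0.0529 with library size alone (alternatives 0.0103 to 0.173). Tlr4, the other calprotectin receptor gene, was at 16.3 ± 0.794 and 15.96 ± 1.22 CPM. Fcer1g, Syk and Card9, through which Mincle signals, and Stat3, Socs3 and Jak2, which act after the G-CSF receptor, did not pass.

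Markers of other cells that can hold these transcripts were measured beside them. Of all tested genes 13.5% rose and 14.0% fell, and these short lists were not tested as sets. Of 10 macrophage genes 2 rose (Vsig4 and Marco) and 1 fell (Cd5l). Cd5l had an edgeR adjusted p of 0.0177, and of 0.0522, 0.0683 and 0.0627 when PBS 1, PBS 2 or DOX 3 was left out (alternatives 0.00205 to 0.0683). The summed macrophage level was 1400 to 1539 CPM with PBS and 1455 to 1624 CPM with DOX, and no macrophage gene was at 0. Of 6 monocyte genes, F13a1 rose by 1.24 on the log2 scale, and Ccr2, Plac8 and Ms4a4c fell, with log2 fold changes of -1.05, -0.66 and -3.32. Ms4a4c had 38 to 65 counts in PBS and 3 to 5 in DOX livers, where it did not reach the filter level. The monocyte sum was 63.2 to 84.4 CPM with PBS and 58.0 to 72.1 CPM with DOX. The eosinophil gene Siglecf fell by 1.23 on the log2 scale, while Prg2, Ear1, Ear6 and Il5ra had at most 7 counts in any library. The eosinophil sum, mostly Ear2, was 24.6 to 36.0 CPM with PBS and 28.9 to 31.9 CPM with DOX. Mast cell and basophil genes had at most 2 counts in any library. Of 6 tested erythroid genes Klf1 rose, with a log2 fold change of 1.28, and the globin-rich sum was 156 to 181 CPM with PBS and 138 to 350 CPM with DOX. Of 6 tested lymphocyte genes Nkg7 fell, on 29 to 46 and 8 to 11 counts, with a lymphocyte sum of 5.13 to 7.32 CPM against 1.68 to 3.39 CPM. The edgeR adjusted p of Nkg7 was 0.0203, and 0.0813, 0.0524, 0.0654 and 0.0512 when PBS 1, PBS 3, DOX 1 or DOX 2 was left out (alternatives 0.0127 to 0.0813). Hepatocyte genes dominated all libraries, with Alb, Ttr and Apoa1 not called and Serpina1a and Tat called higher. The part of any of these cells in the levels of the 10 genes was not tested.

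The genes with the pattern most like S100a9 and Ngp were sought among 12752 tested genes of at least 1 CPM, by the root mean square difference of centred log2(CPM + 0.5) over the 6 libraries. For S100a9 the closest was S100a8 at 0.16, followed by Cnr1 (0.18), Rab25 (0.19), Defb1 (0.22) and 1810062G17Rik (0.22). For Ngp the closest genes reported here were Rpl12 (0.10), Nmral1 (0.10) and Rpl27a (0.10). The pseudocount of 0.5 shrinks the contrast of a gene as low as Ngp, so this likeness is to a flattened pattern. Rpl12, a ribosomal protein gene, stood at 297, 307 and 243 CPM with PBS and 761, 457 and 719 CPM with DOX, with DOX 2 the lowest DOX library as for Ngp.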

How the data were processed

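Liver RNA of 6 samples was sequenced. The authors deposited unnormalized whole-number counts for each gene symbol and library. A deposited table of FPKM values holds the same counts divided by a fixed gene length and the library total, since the length implied for a gene differed by at most 1e-07 of its value from library to library. RNA was isolated with an RNeasy kit and libraries with a SMARTER kit, per the labels' protocols. The submitters' processing notes list GRCm38, mm10 and hg38 with no role; the aligner, counter, strand setting and annotation were not given in the sources used here. The table held 0 columns of other samples.

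Columns were matched to samples by title. DOX was compared with PBS by edgeR's quasi-likelihood test (edgeR 4.0.16, R 4.3.3; filterByExpr with a minimum count of 10 and total of 15, TMM, robust estimation), with group as the only term and Benjamini-Hochberg adjustment over 14681 genes. The biological coefficient of variation was 0.155. Library pairs of a group differed beyond sampling noise (chi-square per degree of freedom 28.2 to 78.5). The fits were also run on simulated counts with the same dispersion for all genes and changes placed only in genes above a minimum level. That run does not cover calls on the lowest counts. Alternatives were DESeq2 1.42.0, library size alone, no filter, a replicate block and leaving out each library. Depth limits the low genes: about 10 counts in a library is the filter.

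The members and gene lists were chosen with earlier results of these data known. The text names the 10 genes, up to 6 called genes per list by smallest p or 2 of the highest level where none was called, Bche, and the 5 genes most like Ngp and S100a9 in pattern. A few genes that this rule covers are not reported here. Acod1 and genes of the lists named as not called or for their counts were chosen after their values were seen. Ctsg, Ms4a3, Fcnb, BC100530, Il17a, Retnlb, Epx, Mcpt4 and Ms4a2 were not analysed here. Gene positions and promoters are from RefSeq (GRCm38.p6; 10 of 10 genes matched), and transcripts from GENCODE M21 (GRCm38).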

Additional observations from a re-analysis of the deposited data

How the results depend on the processing

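Each of the 10 genes kept its direction under all 10 alternatives. A move by more than 1 SE was seen in 4 values of 100: Ngp 3.93 without PBS 1, Chil3 2.93 without DOX 3, and S100a8 0.20 and S100a9 0.09 without DOX 1 (log2). Over all genes, library size alone gave 1028 higher and 3429 lower, and leaving out single libraries gave 1208 to 2440 higher and 1305 to 2348 lower. For the other neutrophil genes, leaving out single libraries gave 7 to 11 higher and 6 to 11 lower. For relatives and partners the same step gave 2 to 5 higher and 1 to 2 lower; library size alone gave 2 higher and 5 lower, and DESeq2 and the fit with no filter each gave 2 lower. Replicate numbers are shared between the groups in the titles. The deviations of same-numbered libraries correlated at 0.119, -0.107 and -0.158, and those of differently numbered libraries at -0.159 to 0.255. With 3 libraries per group, these values cannot tell whether same-numbered libraries were paired. With the replicate block 1633 genes were higher and 1849 lower, among them 8 and 11 other neutrophil genes and 3 and 1 relatives and partners. The block ended the edgeR calls of S100a16 (adjusted p = 0.0598, alternatives 0.0249 to 0.203) and Ager (0.0754, alternatives 0.0103 to 0.173). Ngp, Ltf and Stfa2l1 rest on fewer than 50 counts in each library, which limits what they can show.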

Other observations

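Several low granule and neutrophil genes were highest in PBS 1. Ltf had 30 counts there against 6 to 17 in the other libraries, Camp 11 against 0 to 1, the serine protease gene Prss57 10 against 0 to 1, and Trem3 30 against 1 to 15. Padi4, which citrullinates histones in neutrophils, had 45 counts in PBS 1 and 3 to 12 elsewhere. Ngp had 8 counts in PBS 1 and was higher in all 3 DOX libraries, so it did not share this pattern. These genes were singled out after their values were seen, and no test was made.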
